A study of Mus musculus with 23 samples.

Results

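The cytosolic ribosomal protein genes on this array were taken as every gene whose symbol in the probe annotation is Rpl, Rplp or Rps followed by its number, with or without a final a, or Rpsa; 1 gene of the 60S subunit that fits the pattern and the S6 kinases were left out. The rule found 40 genes of the 12393 that had a probe set naming 1 gene only: 22 encode proteins of the large (60S) subunit and 18 of the small (40S) subunit. They have 88 probe sets in all, and 20 genes have more than 1, up to 6. A further 100 probe sets name a ribosomal protein together with another gene, and 26 symbols, among them Rplp1, Rpl5, Rpl10 and Rps27a, occur only there, so they are no members here.

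Ribosomal proteins and ribosomal RNA form the cytosolic ribosome, and cells make them in a fixed ratio when they grow. Most of their mRNAs begin with a run of pyrimidines, the TOP motif, through which mTOR and the RNA-binding protein Larp1 set how strongly they are translated. In skeletal muscle ribosome synthesis is known for its rise with growth and after injury, when satellite cells divide, immune cells enter and new fibers form.

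The RNA came from mouse gastrocnemius muscle, a mixed calf muscle, of 3 genotypes: control mice, named in the titles as the controls of the lamin A line, mice without emerin (emerin KO), and mice without lamins A and C (lamin A/C KO). Emerin and the A-type lamins are proteins of the nuclear envelope and mutations in their human genes cause Emery-Dreifuss muscular dystrophy, and the series set out to follow the degeneration and regeneration of such muscle. Each genotype was sampled on day 0 and on days 3 and 4 after an injection whose agent the labels do not name, with 2 control arrays per day, 2, 3 and 3 emerin KO arrays and 3 lamin A/C KO arrays per day, 23 in all. Day 0 was labelled as not injected in control and emerin KO mice and as day 0 after injection in lamin A/C KO mice. The labels give neither age, sex and strain nor how the alleles were made. They name no control of the emerin line, and the background of the 2 lines cannot be told apart from the loss of emerin. Nothing says that the arrays of a group came from separate animals, and the p-values then measure only the spread between these samples.

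Values are MAS5 signals, scaled to 1 trimmed mean on every array. Emd, the emerin gene, read 153 to 465 on the emerin KO arrays and 587 to 871 on all others. The brightest Lmna probe set read 53.0 to 109 on the lamin A/C KO arrays and 650 to 5334 on all others; 2 dim Lmna probe sets were not lower. Contractile genes of mature myofibers, 7 listed, were bright on every array (lowest summed signal 41596). The 3'/5' signal ratio of the Gapdh control probe sets, a measure of RNA integrity, was 3.62 to 6.09 on the emerin KO day 3 arrays, 1.40, 2.89 and 5.30 on those of day 4, and 0.822 to 1.64 on the other 17; 5 arrays, all emerin KO, lay above 2.5. In bulk tissue, fewer cells of a type and less RNA per cell cannot be told apart. A signal depends on the probes, so the level of one gene is not set against another.

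Together the 40 genes took a larger share of the summed signal after the injection in all 3 genotypes. The sum was taken on each array over the brightest probe set of each of the 12393 genes. Probe sets that name several genes or none, and the dimmer sets of a gene, are not in it. In control muscle the share was 2.71 and 3.05% on day 0, 3.97 and 3.98% on day 3, and 3.55 and 4.05% on day 4. Emerin KO muscle went from 2.46 and 2.64% on day 0 to between 3.73 and 4.38% on day 3 and between 3.72 and 4.34% on day 4. Lamin A/C KO muscle went from between 2.84 and 3.08% on day 0 to between 4.12 and 4.13% on day 3 and between 3.88 and 4.12% on day 4. No array of day 3 or day 4 overlapped any array of day 0.

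**Figure D1:**
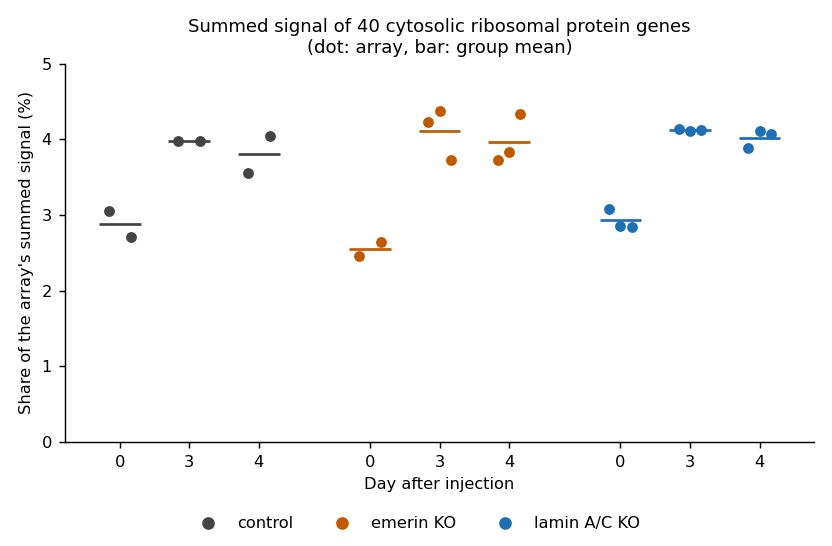
Share (%) taken by the 40 cytosolic ribosomal protein genes of the signal summed over the brightest probe set of each of the 12393 genes, by genotype and day after the injection (dot: 1 array, bar: group mean). The day 0 arrays lie between 2.46 and 3.08%, and the arrays of days 3 and 4 between 3.55 and 4.38%.

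In control muscle on day 3, 17 of the 40 genes were higher than on day 0 and none was lower (adjusted p under 0.05, limma), where 20.1% of the 11164 genes tested were higher and 14.2% lower (34.3% in all). The median log2 difference of the 40 was 0.41, and of all genes tested 0.08. On day 4, 13 were higher and none lower, against 19.5% and 14.3% of all genes (33.8% in all), with a median of 0.28 for the members and 0.03 for all genes. Both subunits took part: on day 3, 10 of 22 genes of the 60S and 7 of 18 of the 40S subunit were higher.

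Rpsa, a 40S protein that is also known as the laminin receptor, showed one of the clearest changes. Its signal in control muscle was 6971 and 5622 on day 0, 12017 and 14397 on day 3, and 11265 and 14285 on day 4. Every injected array lay above both arrays of day 0, by a mean of 2.10-fold on day 3 (limma, log2 1.07 ± 0.19 SE, adjusted p = 0.000117). Rpsa has 2 probe sets, and these values are of the brightest, the only 1 that was tested singly. Rps9, a 40S protein near the decoding site, rose as much, from 4614 and 3943 to 8623 and 9351 on day 3 and 7556 and 8047 on day 4 (day 3 log2 1.07 ± 0.19 SE, adjusted p = 9.03e-05). Rps19, the gene most often mutated in Diamond-Blackfan anaemia, an inherited failure of red cell production, read 4427 and 3517 on day 0 and 8159 and 6135 on day 3, a rise of 1.79-fold (adjusted p = 0.00063).

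The 2 genes with the largest log2 differences in control muscle were dim. Rps25, a 40S protein used by some viral and cellular internal ribosome entry sites, went from 227 and 166 on day 0 to 757 and 322 on day 3, which do not overlap although the day 3 arrays differ widely (log2 1.22 ± 0.29 SE, adjusted p = 0.00208). Rpl14, a 60S protein, went from 102 and 132 to 320 and 246 (log2 1.07 ± 0.23 SE, adjusted p = 0.000748). Of the 5 largest rises on day 3, the call of Rps25 was lost when control day 3 replicate 1 was left out and the other 4 calls were kept with any array left out.

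Among the members with other known roles, Rpl11 rose and the stalk protein genes did not pass the test. Rpl11 binds the 5S RNA and, outside the ribosome, the p53 regulator Mdm2; it read 5245 and 3960 on day 0 and 7439 and 8484 on day 3 (log2 0.80 ± 0.16 SE, adjusted p = 0.000298). Rps6, the substrate of the S6 kinases, passed narrowly, from 257 and 242 to 390 and 341 (log2 0.49 ± 0.18 SE, adjusted p = 0.0411), and lost the call without any one of its 4 arrays. Rplp2, a stalk protein that recruits elongation factors, had 12523 and 10075 on day 0 and 14882 and 14732 on day 3 (log2 0.40 ± 0.18 SE, adjusted p = 0.0932).

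Other members stayed within or near the spread of the arrays. Rplp0, the base of the stalk and a frequent reference gene in PCR work, read 10668 and 9961 on day 0 and 11795 and 7624 on day 3, with the day 0 arrays lying between those of day 3 (log2 -0.12 ± 0.18 SE, adjusted p = 0.686). Rpl4 overlapped as well, at 11692 and 10744 against 11108 and 12081. Rps2, a 40S protein, was the member with the lowest difference, 16956 and 16218 on day 0 against 14253 and 14693 on day 3, not overlapping but short of the threshold (log2 -0.20 ± 0.15 SE, adjusted p = 0.352). Over the 40 genes the change on day 3 ran from 0.873-fold for Rps2 to 2.34-fold for Rps25. Rpl38, a 60S protein needed for the translation of some Hox mRNAs, had 12779 and 12255 on day 0 and 13820 and 15451 on day 3 (adjusted p = 0.443). Rpl22, a 60S protein with a role in T cell development, had 2019 and 1489 against 2542 and 2337 (adjusted p = 0.0932); neither gene's control arrays overlapped, and neither passed on day 3 in the other genotypes. Both depend on the setting: with quantile normalization Rpl38 passed on day 3 in control, emerin KO and lamin A/C KO (log2 0.60, 0.52 and 0.66), and with the Gapdh ratio as a covariate Rpl22 passed in control and emerin KO (log2 0.53 and 1.05, adjusted p = 0.0243 and 0.00931).

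**Figure D2:**
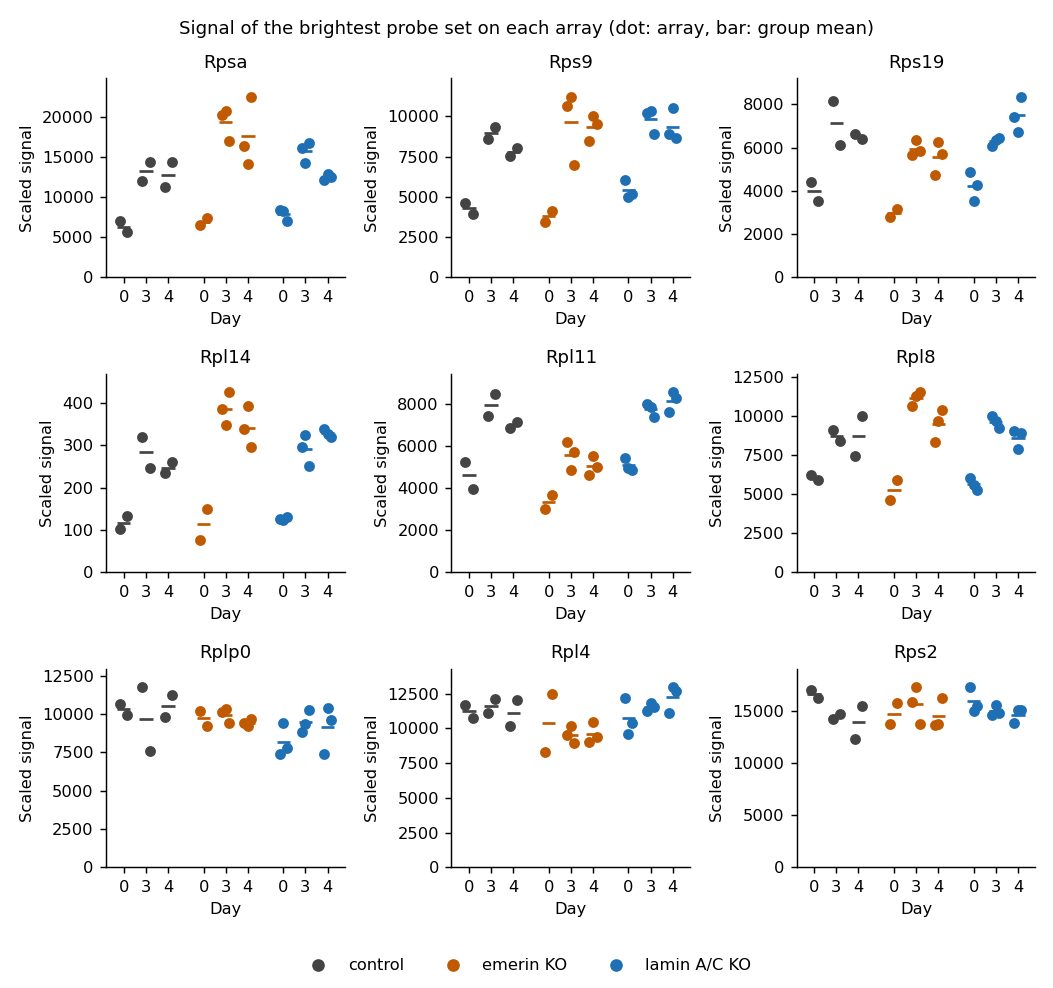
Scaled signal (linear axis from 0) of the brightest probe set of 9 ribosomal protein genes on each array, by genotype and day (dot: 1 array, bar: group mean). Rpsa, Rps9, Rps19, Rpl14, Rpl11 and Rpl8 lie higher on the injected arrays in each genotype, while Rplp0, Rpl4 and Rps2 overlap or differ little.

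The control counts rest on few arrays. Without control day 0 replicate 2, which had the lower share on day 0, 6 genes passed on day 3 and 3 on day 4; without control day 3 replicate 1 or 2 there were 11 and 10 on day 3, and without control day 4 replicate 2 there were 6 on day 4. Each array was also centred on its median signal in place of the trimmed mean, which moved the median difference of all genes on day 3 by -0.11. Then 6 of the 40 members passed on each day, while 1773 and 1794 of all 11164 genes were higher on days 3 and 4. That share of the members was no larger than the share of all genes. With quantile normalization 27 and 25 members passed, while 2060 and 2018 of all genes were higher. All of these members were higher.

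In emerin KO muscle on day 3, 27 of the 40 genes were higher than on day 0 and none lower, against 23.9% and 22.2% of all genes (46.1% in all), with a median log2 difference of 0.60 for the members and -0.08 for all genes. On day 4 there were 25 higher and none lower, against 23.5% and 20.8% (44.2% in all), with medians of 0.50 and -0.06. Rps25, Rpl14, Rpsa and Rps9 had the 4 largest differences of day 3 in this genotype, as in control and lamin A/C KO muscle. Rps25 went from 205 and 231 on day 0 to 934, 1050 and 672 on day 3 and 889, 777 and 1057 on day 4 (day 3 log2 1.86 ± 0.27 SE, adjusted p = 4.96e-06). Rpsa had 6515 and 7317 on day 0 and 20200, 20720 and 16919 on day 3, 2.77-fold higher (adjusted p = 3.16e-07). Rpl8, a 60S protein at the peptidyl transferase centre, rose from 4625 and 5912 to 10625, 11292 and 11544 (log2 1.09 ± 0.14 SE, adjusted p = 1.38e-06).

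Rplp2 and Rps24 passed the test here, and the test of the difference from the control change did not pass for either (interaction 0.28 and 0.57, adjusted p = 0.591 and 0.154). Rplp2 had 11795 and 9568 on day 0 and 19528, 19375 and 13144 on day 3 (log2 0.68 ± 0.16 SE, adjusted p = 0.00138), and on day 4 it read 17145, 16925 and 20915. The Rplp2 call was lost with the Gapdh ratio as a covariate (log2 0.31, adjusted p = 0.450), and in control Rplp2 passed with quantile normalization (log2 0.77, adjusted p = 0.000143) and without the arrays of high Gapdh ratio (adjusted p = 0.0343). Rps24, a 40S protein of the Diamond-Blackfan genes, went from 7234 and 5367 to 9482, 9579 and 8517 (log2 0.56), whereas its control arrays ranged from 9108 to 9684 over all 3 days. Rps19 rose from 2772 and 3133 to 5645, 6336 and 5852 (adjusted p = 1.92e-05). Rplp0 again overlapped, with 10202 and 9241 on day 0 against 10131, 10320 and 9439 on day 3. Rps7 overlapped too, at 6653 and 7695 against 7463, 7606 and 7690, although it passed the test in both other genotypes.

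The 5 arrays with a Gapdh ratio above 2.5 are emerin KO arrays of days 3 and 4, so on day 3 the ratio and the change over time cannot be told apart. With the ratio as a covariate, 10 genes passed on day 3 and 16 on day 4, all higher. How many of all genes passed with this covariate was not counted, so the smaller counts are not read as a result about the members. Leaving out the arrays above 2.5 removes day 3 altogether and leaves 1 array of day 4, with which 24 genes passed.

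In lamin A/C KO muscle on day 3, 20 of the 40 genes were higher and none lower, against 23.4% and 19.6% of all genes (43.0% in all), with a median of 0.37 for the members and -0.08 for all genes. On day 4, 18 were higher and none lower, against 21.0% and 18.2% (39.2% in all), with medians of 0.31 and -0.08. Rpl14 had 125, 125 and 131 on day 0, 295, 325 and 250.5 on day 3, and 339, 327 and 319 on day 4, a rise of 2.02-fold on day 3 and 2.27-fold on day 4 (adjusted p = 0.000123 and 2.6e-05). Rpsa went from 8341, 8274 and 6953 to 16067, 14215 and 16660 on day 3 and 12125, 12868 and 12454 on day 4 (day 3, limma, log2 0.99 ± 0.16 SE, adjusted p = 1.73e-05). With the mean of its probe sets the call of day 4 was lost (limma, log2 0.22, adjusted p = 0.199). Rpl11 read 5430, 4961 and 4842 on day 0 and 8014, 7851 and 7400 on day 3 (1.52-fold, adjusted p = 0.000428). The day 3 and day 4 arrays of these 3 genes all lay above those of day 0. Rps27, a dim 40S gene, had the lowest difference, 490, 559 and 450 against 402, 273 and 287 (log2 -0.61 ± 0.27 SE, adjusted p = 0.079). With quantile normalization 34 members were higher and 1 lower on day 3, while 2578 of all 11164 genes were higher and 2236 lower.

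The day changes of the 3 genotypes share no arrays, so the genes can be set side by side. They come from 1 fit that shares 1 estimate of the spread of each gene, so the calls are not fully independent. On day 3, 15 genes were higher in all 3: Rpl6, Rpl8, Rpl10a, Rpl11, Rpl13a, Rpl14, Rpl19, Rpl27, Rpl35, Rps3, Rps6, Rps9, Rps19, Rps25 and Rpsa. The place of Rps6 is weak. In lamin A/C KO its call was lost without day 0 replicate 1 or 2 or day 3 replicate 2 or 3. With the mean of its probe sets it did not pass (limma) in control (log2 0.32, adjusted p = 0.394) or lamin A/C KO (log2 0.24, adjusted p = 0.370). In none of the 3 did 10 genes pass: Rpl4, Rpl22, Rpl37, Rpl38, Rpl39, Rpl41, Rplp0, Rps2, Rps14 and Rps27. Of the 17 genes of control muscle, 15 were among the emerin KO genes (88.2% of the first list, 55.6% of the second) and 16 among the 20 of lamin A/C KO (94.1% and 80.0%). Over all genes tested, the genes higher in both control and emerin KO were 80.8% of the first list and 68.1% of the second, and those of control and lamin A/C KO 85.5% and 73.4%. On day 4, 11 genes were higher in all 3 genotypes and 12 in none. How many of all genes were higher in all 3 genotypes, or in none, was not counted for either day. The counts over 3 genotypes therefore do not show whether the members differ from other genes in this.

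**Figure D3:**
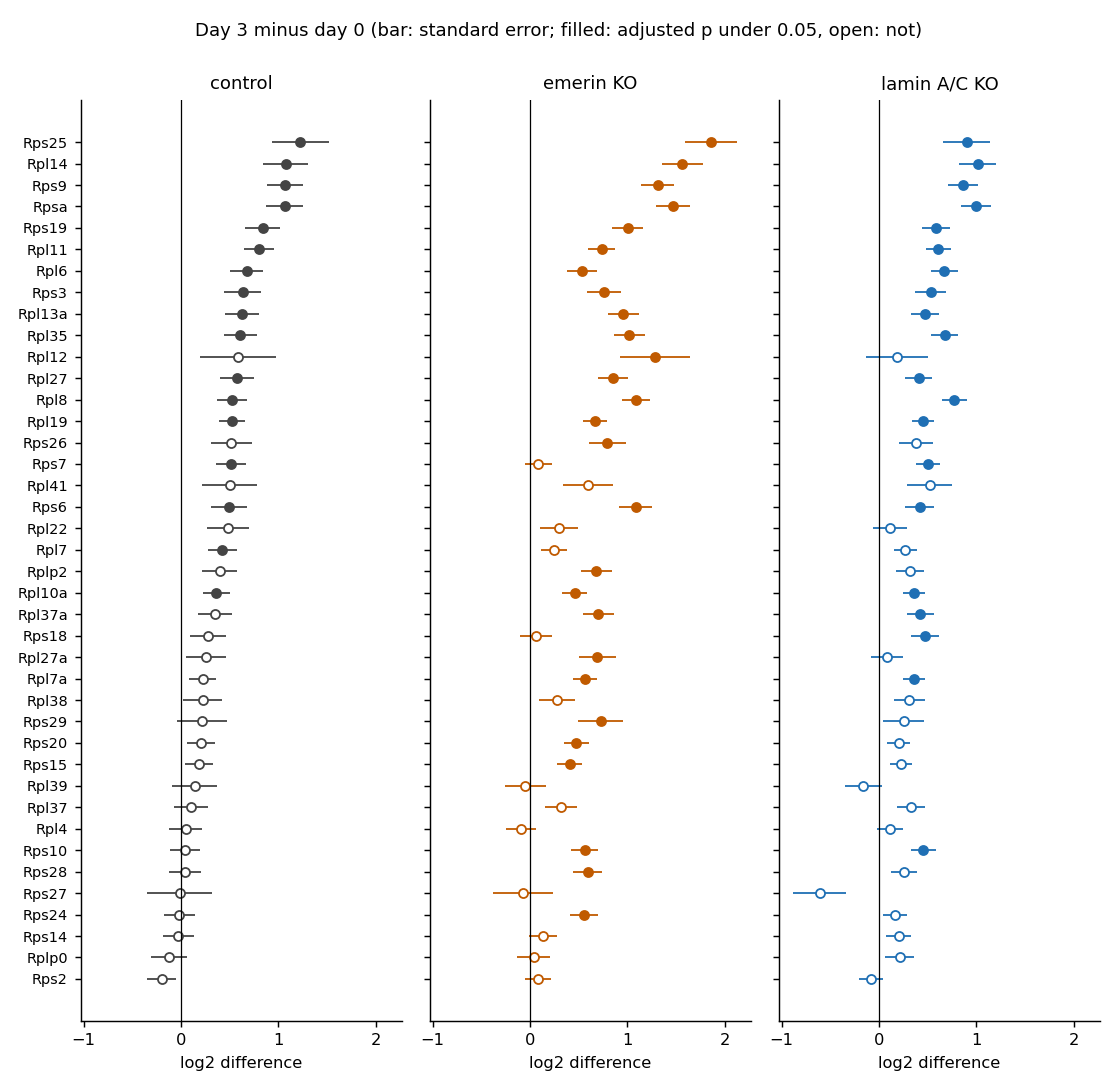
Log2 difference of day 3 minus day 0 for the 40 ribosomal protein genes in each genotype, ordered by control muscle (point: fitted difference, bar: standard error; filled: adjusted p under 0.05, open: not). The upper end holds Rps25, Rpl14, Rps9 and Rpsa in each genotype; the filled points number 17, 27 and 20.

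Between day 3 and day 4 no member passed the test in any genotype, with medians of -0.08 in control, -0.06 in emerin KO and -0.03 in lamin A/C KO. At an unadjusted p under 0.05 there were 0, 1 and 1 members, and 531, 1243 and 1665 of all 11164 genes. Of all genes, 0.0448% passed in control (0.0% lower), 1.17% in emerin KO (0.958% higher and 0.215% lower) and 2.04% in lamin A/C KO (1.29% higher and 0.752% lower). The largest of these differences was that of Rpl27a in emerin KO muscle, 574, 737 and 604 on day 3 against 358, 393 and 545 on day 4, which do not overlap (log2 -0.54 ± 0.17 SE, adjusted p = 0.136). Without emerin KO day 4 replicate 3, 1 member passed and was lower.

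The bases around the annotated starts are shown because the TOP motif and the start site are what the members are known to share. Start regions were found in the RefSeq table (GRCm38.p6) for 35 of the 40 genes. The stretches below run from 15 bases before to 15 bases from the annotated first base on, 5′ to 3′ on the strand of the gene, and capitals mark the unbroken run of pyrimidines that covers the first base. The first 5 hold such a run, and the last 4 hold none:
Rps6: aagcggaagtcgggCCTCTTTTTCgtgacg
Rpl38: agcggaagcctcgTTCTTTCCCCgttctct
Rplp2: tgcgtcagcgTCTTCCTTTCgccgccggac
Rpl14: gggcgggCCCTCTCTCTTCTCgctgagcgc
Rps9: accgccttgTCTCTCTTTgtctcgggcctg
Rpsa: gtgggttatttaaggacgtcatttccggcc
Rpl11: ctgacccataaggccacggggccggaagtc
Rps25: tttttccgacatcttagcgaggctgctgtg
Rplp0: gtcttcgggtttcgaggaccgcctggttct

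They lie at chr4:86857353-86857382 on the minus strand (Rps6), chr11:114668565-114668594 on the plus strand (Rpl38), chr7:141447636-141447665 on the plus strand (Rplp2), chr9:120571502-120571531 on the plus strand (Rpl14) and chr7:3704026-3704055 on the plus strand (Rps9). The other 4 lie at chr9:120127751-120127780 on the plus strand (Rpsa), chr4:136053379-136053408 on the minus strand (Rpl11), chr9:44407699-44407728 on the plus strand (Rps25) and chr5:115559452-115559481 on the plus strand (Rplp0). Each window covers the promoter side and the first bases of the annotated transcript, and the start itself was not measured here. A run can reach back before the first base: of the 9 bases of the Rps9 run, 3 lie from the first base on. Whether a gene holds a run thus depends on the annotated start, and the counts below are not counts of TOP motifs. A run of at least 5 pyrimidines over the first base was found in 13 of the 35 members (37.1%) and in 11.8% of the 27025 genes of the table. Among 65 mitochondrial ribosomal protein genes it was found in 4 (6.15%). Members higher on day 3 in all genotypes held it in 4 of 14, and those that passed in none in 3 of 9, so both kinds of member have genes with and without it: Rps6 and Rpl14 against Rpsa and Rpl11 in the first, and Rpl38 against Rplp0 in the second.

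Within the 300 bases from 250 before the start to 50 after it, the letters CTTCCG or their reverse complement CGGAAG, the core that factors of the ETS family bind, were found in 26 of 35 members (74.3%). The share was 18.8% of all genes of the table, 30.9% of the 8936 genes tested that have an entry, and 56.9% of the mitochondrial ribosomal protein genes. These letters are a match and not a measured site, and they can overlap the pyrimidine run.

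Few members differed between genotypes, and for emerin KO their counts lay near the share of all genes on each day. On day 0, 1 of the 40 genes differed between emerin KO and control and it was lower, where 1.23% of all genes were higher and 2.03% lower (3.26% in all). This was Rps24, with 7234 and 5367 in emerin KO against 9684 and 9284 in control (log2 -0.60 ± 0.16 SE, adjusted p = 0.0352); of its 5 other probe sets, 2 differed in the other direction, by up to 0.74, and the mean of all its sets gave -0.09 (adjusted p = 0.776). The call was lost without either control array or emerin KO replicate 2, and 3 members passed without emerin KO replicate 1. The median difference of the members was -0.14, with 34 of 40 negative, and that of all genes 0.09. Summed fibroblast markers were also lower on these emerin KO arrays, 27265 and 42831 against 54724 and 62970 (2 of 6 markers passed), as were 2 of 4 proliferation markers and 2 of 5 of regenerating muscle; their part in the result was not tested.

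On day 3, 2 members were higher and 3 lower in emerin KO than in control, against 7.38% and 8.92% of all genes (16.3% in all). Rps6 stood out: 813, 946 and 955 in emerin KO against 390 and 341 in control, 2.36-fold (log2 1.24 ± 0.17 SE, adjusted p = 5.89e-05). On day 4 it was 750, 662 and 825 against 265 and 339 (log2 1.22 ± 0.17 SE, adjusted p = 0.00032), and on day 0 it was 358 and 466 against 257 and 242, not overlapping but not past the threshold (adjusted p = 0.0569). Every emerin KO array lay above both control arrays of its day. Lamin A/C KO arrays, at 229 to 366, stayed within the control range of 242 to 390 but for 4 day 0 and day 4 arrays just under it. The second Rps6 probe set, at 36.2 to 316, passed in none of these comparisons, and with the mean of both sets the day 4 difference was 0.76 (adjusted p = 0.0611). Rpsa was the other higher gene on day 3 (log2 0.54 ± 0.17 SE, adjusted p = 0.0355).

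Cell markers differed between these day 3 arrays as well. Summed macrophage markers were 44709 to 47034 in emerin KO and 35190 to 35949 in control (3 of 9 passed, all higher). Summed fibroblast markers were 35243 to 40350 against 55133 to 56001 (3 of 6 passed, all lower), and summed myofiber markers 41596 to 48499 against 52938 to 74186 (1 of 7 passed, lower). None of the 3 sums overlapped on day 3, nor did they on day 4, and their part in the member differences was not tested.

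The lower genes on day 3 were Rps7, Rpl11 and Rpl7. Rps7, a 40S protein that also binds Mdm2, read 7463, 7606 and 7690 in emerin KO and 11476 and 12099 in control (log2 -0.63 ± 0.14 SE, adjusted p = 0.00337), and its other probe set was lower as well, at 2304, 2189 and 2117 against 5684 and 4806 (log2 -1.23 ± 0.23 SE, adjusted p = 0.000947). Rpl11 had 6199, 4852 and 5715 against 7439 and 8484 (log2 -0.51 ± 0.14 SE, adjusted p = 0.0156). Rpl7, a 60S protein, had 6913, 7160 and 6990 against 9092 and 9398 (log2 -0.40 ± 0.13 SE, adjusted p = 0.0479), and its other 2 probe sets were lower too (log2 -0.79 and -0.98, adjusted p = 0.0251 and 0.0153).

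None of the 5 genes overlapped between the genotypes on day 3, and how often other called genes overlapped was not counted. Rps6 and Rps7 kept the call with any array left out. Rpl11 lost it without control or emerin KO replicate 2, Rpl7 without any one of the 5 arrays, and Rpsa without any but emerin KO replicate 3; 2 genes passed without control or emerin KO replicate 2 and 3 without emerin KO replicate 1. The Gapdh ratio moves with this contrast: with it as a covariate no member passed, Rps6 was at 0.81 (adjusted p = 0.348) and Rps7 at -0.46 (adjusted p = 0.657), and Rpsa turned to -0.26 (adjusted p = 0.875).

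On day 4, 2 members were higher and none lower in emerin KO, against 2.58% and 3.29% of all genes (5.87% in all). Beside Rps6 this was Rps25, with 889, 777 and 1057 against 412 and 412 (log2 1.07 ± 0.27 SE, adjusted p = 0.0226), which lost the call without either control array or emerin KO replicate 1 or 3. Leaving out either control array or emerin KO replicate 1 gave 1 member, and leaving out replicate 2 gave 5. Without all the arrays of high Gapdh ratio, those of day 3 included, 1 emerin KO array of day 4 was left. The differences were then 1.06 for Rps6 and 0.87 for Rps25 on the log2 scale.

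Lamin A/C KO differed from control in 1 member on day 0, where 0.752% of all genes were higher and 0.143% lower (0.896% in all). For Rps25 the lamin A/C KO arrays gave 708, 391 and 486 and the control arrays 227 and 166, with all 3 above both control arrays (log2 1.27 ± 0.27 SE, adjusted p = 0.0206); the call was lost without either control array or lamin A/C KO replicate 1. On days 3 and 4 no member passed, and 1 on each day had an unadjusted p under 0.05, where 809 and 540 of the 11164 genes did; 0.0269% and 0.0448% of all genes passed, all lower (0.0% higher), and without control day 3 replicate 1 there was 1 member on day 3. Rps25 was then 0.94 ± 0.27 (SE) and 0.68 ± 0.27 (SE) higher on the log2 scale (adjusted p = 0.435 and 0.9998).

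**Figure D4:**
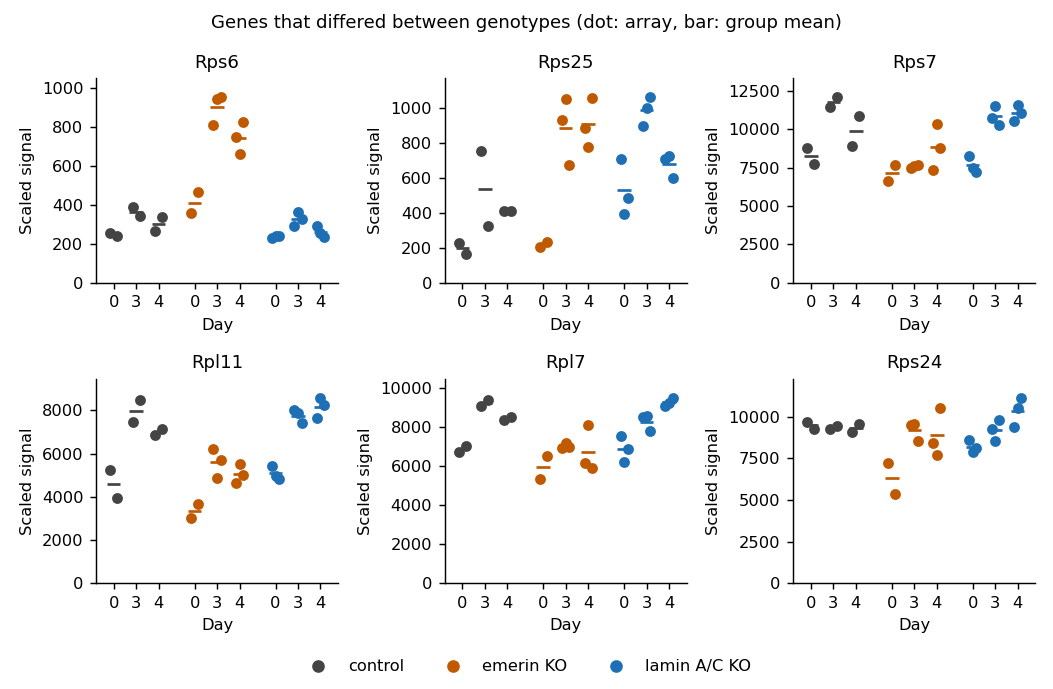
Scaled signal (linear axis from 0) of 6 ribosomal protein genes that differed between a knockout and control on some day, on each array (dot: 1 array, bar: group mean). Rps6 lies at 662 to 955 on the injected emerin KO arrays and at 229 to 390 on all control and lamin A/C KO arrays; Rps7, Rpl11 and Rpl7 lie lower in emerin KO on day 3.

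Whether the day change itself differed between genotypes was tested as an interaction. For emerin KO no member passed on day 3 or day 4, where 2.64% (1.42% higher, 1.22% lower) and 0.573% (0.358% higher, 0.215% lower) of all genes did, and 6 and 8 members had an unadjusted p under 0.05, where 1934 and 1358 of the 11164 genes did. The medians of the members were 0.26 and 0.27, and those of all genes -0.12 and -0.06. Both days use the same day 0 arrays of control and of emerin KO, on which 34 of 40 members were lower in emerin KO, so the days are not independent of each other. Without emerin KO day 0 replicate 1, 2 members passed on day 3 and 1 on day 4. Rpl12 had the largest value, 1.32 ± 0.53 (SE) on day 4 (adjusted p = 0.308), and 1 of its 2 emerin KO day 0 arrays read 31.3 against 188 on the other. For lamin A/C KO no member passed, 0 and 1 had an unadjusted p under 0.05 (716 and 866 of all genes), and the medians were -0.01 and 0.07, where 0.17% (0.00896% higher, 0.161% lower) and 0.206% (0.0179% higher, 0.188% lower) of all genes passed.

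Probe sets of 1 gene did not always change alike. Of 82 member probe sets tested singly on day 3, 29 were higher in control, 54 in emerin KO and 43 in lamin A/C KO, where 18%, 22.4% and 21.1% of all probe sets were. In emerin KO 2 were lower and in the others none, against 21.2%, 12.7% and 18.6% of all probe sets. Those 2 were dim sets of Rps24 (259 and 384 on day 0, 87.0, 74.7 and 215 on day 3) and Rps20 (307 and 271, then 127, 116 and 173), whose bright sets rose. Of the 42 sets that are not the brightest of their gene, 32, 34 and 34 had the sign of the brightest one.

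Rpl13a, a 60S protein that can leave the ribosome to silence inflammatory mRNAs, shows the spread among its 4 sets. Its brightest set had 7606 and 5744 on control day 0 and 9837 and 10672 on day 3 (log2 0.63), a second had 5432 and 4952 against 5905 and 6708 and did not pass, and the dimmest had 459 and 315 against 2048 and 1606 (log2 2.16 ± 0.19 SE, adjusted p = 1.86e-08). That dimmest set rose from 197 and 204 to 2421, 2648 and 2103 in emerin KO (log2 3.38 ± 0.17 SE). A set of Rps9 also departs from its gene: its day 0 signals were 1546 and 1333 in control but 177, 376 and 202 in lamin A/C KO (log2 -2.44 ± 0.56 SE, adjusted p = 0.0442), and 279 on 1 lamin A/C KO array of day 4, while the brightest Rps9 set read 6040, 4984 and 5204 against 4614 and 3943.

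Other lists of the translation machinery are given by their counts, to be read against the share of all genes on day 3: 20.1% higher and 14.2% lower in control, 23.9% and 22.2% in emerin KO, and 23.4% and 19.6% in lamin A/C KO. No list was tested against the members or against other genes. Of 74 mitochondrial ribosomal protein genes, whose products translate the mitochondrial genome, none was higher and 32 were lower on day 3 in control, with a median of -0.46. In emerin KO 1 was higher and 38 lower (median -0.48), and in lamin A/C KO 1 and 32 (median -0.34). Mrpl42 fell most in each, to a signal 3.76-fold, 5.67-fold and 3.23-fold lower. The contractile markers fell over the same interval, 7 of 7 in each genotype, with summed signals of 150518 to 198479 on day 0 and 41596 to 74186 on day 3; their part in this result was not tested.

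Of 60 ribosome assembly genes, 18 were higher and 1 lower on day 3 in control, 23 and 6 in emerin KO, and 25 and 2 in lamin A/C KO, and 41, 31 and 33 did not pass. Fbl, the methyltransferase of ribosomal RNA, rose by 1.61 ± 0.18 (SE), 2.82 ± 0.17 and 1.89 ± 0.15 on the log2 scale. The nucleolar chaperone gene Npm1 rose by 1.15, 1.35 and 1.12, and Ncl, nucleolin, by 0.81, 1.37 and 1.25. Of 16 genes of RNA polymerase I and its factors, which transcribe ribosomal RNA, 1 was higher and 1 lower in control, 5 and 2 in emerin KO and 5 and 2 in lamin A/C KO.

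Of 39 translation factors, 11 were higher and 7 lower in control, 12 and 12 in emerin KO and 12 and 10 in lamin A/C KO. Pabpc1, the poly(A)-binding protein and itself a TOP mRNA, rose by 1.48 ± 0.27 (SE) in control, 1.39 in emerin KO and 1.32 in lamin A/C KO. Eef1a2, the elongation factor of mature muscle, fell by 2.10, 2.94 and 2.93, and Eif4a2, an RNA helicase of initiation, by 1.32, 1.97 and 1.59. Of 27 genes that control ribosome synthesis, 8 were higher and 6 lower in control, 4 and 8 in emerin KO and 6 and 7 in lamin A/C KO. Myc, which drives ribosome synthesis, rose by 1.69 ± 0.28 (SE) in control and 1.25 ± 0.23 in lamin A/C KO, and differed by 0.28 ± 0.25 in emerin KO (adjusted p = 0.386).

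**Figure D5:**
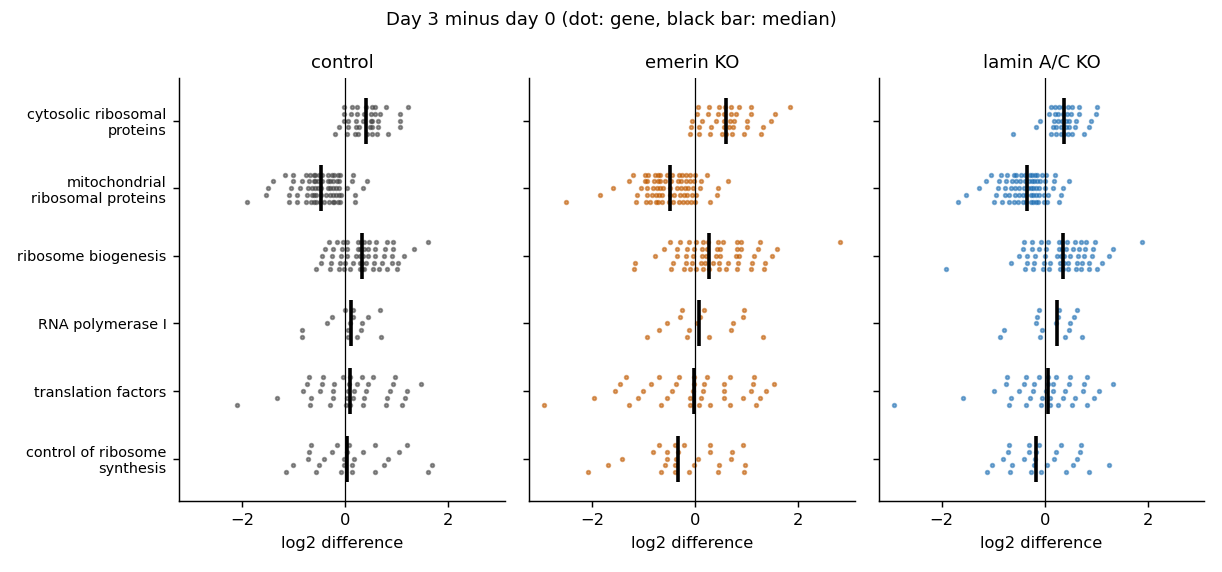
Log2 difference of day 3 minus day 0 for the genes of 6 lists in each genotype (dot: gene, black bar: median of the list). The median of the cytosolic ribosomal proteins is 0.41, 0.60 and 0.37, and that of the mitochondrial ribosomal proteins -0.46, -0.48 and -0.34.

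Markers of other cells moved over the same interval. Of 9 macrophage markers, 9 were higher on day 3 in control, 8 in emerin KO and 9 in lamin A/C KO, and their summed signal went from 4027 to 7581 over the day 0 arrays to 35190 to 47034 over those of day 3. Proliferation markers, 4 of 4, and genes of regenerating fibers, 5 of 5, were higher in each genotype. Their part in the rise of the ribosomal protein genes was not tested.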

How the data were processed

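The authors deposited 1 MAS5 signal (an intensity on a linear scale) per probe set and array, per the submitters' processing notes, in which no MAS5 version was found. Without its lowest and highest 2%, every array had a mean of 150.04 to 150.06. Signals were multiplied so that this mean became 500, and log2(signal + 32) was taken, which understates changes of dim genes. Of 22690 probe sets, 20380 name 1 gene; the brightest on average stood for each gene, and the 11164 genes that reached 100 on 2 or more arrays were tested, all 40 members among them. limma 3.58.1 (R 4.3.3, data.table version 1.17.8) was fitted to all 9 groups (14 residual degrees of freedom) with 19 comparisons, and p-values were adjusted by Benjamini-Hochberg over all genes of a comparison. The fit was tested on simulated data. The number of arrays limits the precision.

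The members and lists were chosen with earlier results of these data known. Named were, per comparison, up to 5 of the largest rises and 5 of the largest falls among called genes whose arrays do not overlap, all where 5 or fewer were called, the 5 largest differences where none was (only the leading ones are described), and a fixed set (Rplp0, Rplp2, Rpsa, Rps6, Rpl11, Rps19, Rpl38, Rpl22); Rps2, Rpl4, Rps27, Rps20, Rpl13a, the Rps9 set and Rps7 and Rps24 in emerin KO over time were singled out after their values were seen, as were the list genes Npm1, Ncl and Myc in some genotypes. Probe annotation came from the platform table, start regions from RefSeq (GRCm38.p6). Alternatives were quantile normalization, median scaling, a replicate block, averaging all probe sets of a gene, pseudocounts of 1 and 100, testing without the filter, the Gapdh ratio as a covariate or limit, and leaving out each array. Figures were drawn with matplotlib and Python; no array was dropped or imputed in the reported fit.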

Additional observations from a re-analysis of the deposited data

Results flagged for a closer look

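Whether a day change differed between emerin KO and control passed the test for 1 of the 82 member probe sets, the dimmest of Rpl13a. Its rise was larger in emerin KO by 1.21 ± 0.26 (SE) on the log2 scale on day 3 (adjusted p = 0.0165, limma over all probe sets) and by 1.15 ± 0.26 (SE) on day 4 (adjusted p = 0.0498). It started lower in emerin KO, at 197 and 204 on day 0 against 459 and 315 (log2 -0.83 ± 0.19 SE, adjusted p = 0.0182), and both interactions use these day 0 arrays. The brightest Rpl13a set did not pass. The groups, of 2 or 3 arrays, are too small for a test of single outlying arrays.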

How the results depend on the processing

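Counts of members called changed by over 1.5 times under these settings. Quantile normalization gave 27 and 25 in control on days 3 and 4 and 35 and 31 in lamin A/C KO; median scaling gave 6 and 6 in control, 0, 2 and 1 for the emerin KO difference from control on days 0, 3 and 4, and 0 for that of lamin A/C KO on day 0. A covariate for the Gapdh ratio left 10 and 16 that passed over time in emerin KO, and 0 and 1 for its difference from control on days 3 and 4; no filter gave 3 for that difference on day 3, and leaving out arrays of high Gapdh ratio gave 0 on day 4. The covariate reversed the day 3 difference of Rpsa between these genotypes (-0.26). With 1 array left out, counts ran from 6 to 14 and from 3 to 12 in control on days 3 and 4, 22 to 30 and 20 to 26 in emerin KO, 17 to 20 and 14 to 18 in lamin A/C KO, 0 to 3, 2 to 5 and 1 to 5 for the emerin KO difference on days 0, 3 and 4, 0 to 1 for the lamin A/C KO difference on days 0 and 3, 0 to 1 for emerin KO day 4 minus day 3, and 0 to 2 and 0 to 1 for the emerin KO interactions on days 3 and 4; the rest stayed at 0. A group left with 1 array is assumed to vary like the others. The causes were not tested. With a replicate block, counts were 17 and 11 in control, 27 and 24 in emerin KO and 20 and 16 in lamin A/C KO; Rpl7 and Rpsa lost their day 3 calls between emerin KO and control (adjusted p = 0.0742 and 0.0577). Deviations from the group means were correlated between arrays of different groups. Equal replicate numbers gave r from -0.30 to 0.39 (82 pairs, median 0.02, 26 above 0.1). Unequal numbers gave r from -0.46 to 0.46 (152 pairs, median -0.02, 28 above 0.1). In a group of 2 arrays the deviations mirror each other, so this check cannot decide whether the arrays were paired. Dim members (7 with a mean signal under 1000) have the least signal over background.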

Other observations

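Of 8 ribosomal proteins and paralogs outside the naming rule, 3 were higher and none lower on day 3 in control, 6 and 1 in emerin KO, and 6 and none in lamin A/C KO, where 20.1%, 23.9% and 23.4% of all genes were higher. Fau, which encodes the 40S protein Rps30 fused to a ubiquitin-like peptide, rose 1.91-fold, 2.14-fold and 2.49-fold. Rps4l, a paralog of Rps4x, rose by 2.82 ± 0.52 (SE), 1.95 ± 0.47 and 2.72 ± 0.42 on the log2 scale.

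The 13 members that are Diamond-Blackfan genes were higher in 6 cases on day 3 in control, 11 in emerin KO and 7 in lamin A/C KO, with medians of 0.52, 0.73 and 0.41, against 17, 27 and 20 of all 40 members and 20.1%, 23.9% and 23.4% of all genes. On day 0 all 13 lay below control in emerin KO (median -0.33), as did 34 of all 40 members, 1 of them, Rps24, past the threshold. The median of all genes was 0.09. These genes were all read on the same arrays, so their signs are not independent of each other.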
